A study of Arabidopsis thaliana with 23 samples.

Results

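The 5 loci described here are the trans-acting siRNA (ta-siRNA) genes *TAS1A* (AT2G27400), *TAS1B* (AT1G50055), *TAS1C* (AT2G39675), *TAS2* (AT2G39681) and *TAS3* (AT3G17185) of Arabidopsis thaliana. They were chosen by gene, and their members were the 53 windows of 100 bp that overlap the annotated genes, out of 731896 windows that held at least 1 read of 21 to 24 nt in any of the 23 libraries. In TAIR10 coordinates *TAS1A* lies at Chr2:11721539-11722468, *TAS1B* at Chr1:18549204-18550042, *TAS1C* at Chr2:16537288-16538277 and *TAS2* at Chr2:16539384-16540417, all on the minus strand, and *TAS3* lies at Chr3:5861491-5862437 on the plus strand. All are annotated as noncoding RNA genes. The windows of *TAS1B* also overlap *MIR5636* and those of *TAS1C* overlap AT2G39670. Inflorescence small RNAs of Col-0 plants were sequenced in batches A and B, the names the labels give. Batch A held 3 *zmp-2*, 2 *nrpd1-3*, 3 *ZMP-YFP zmp-2* and 3 WT libraries, and batch B held 3 libraries each of *zmp-2 nrpd1-3*, *zmp-2 shh1-1*, *zmp-2* and WT. *zmp-2* is a T-DNA insertion allele of *ZMP*, a gene studied as a partner of RNA polymerase IV (Pol IV). *nrpd1-3* disrupts the largest Pol IV subunit and *shh1-1* a factor that recruits Pol IV. The transgene in *ZMP-YFP zmp-2* is driven by the *ZMP* promoter. Both double mutants were compared with *zmp-2* of their own batch, so those controls also lack functional *ZMP*.

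ta-siRNAs are made from Pol II transcripts. A miRNA loaded in an Argonaute protein cuts the transcript, RDR6 with SGS3 copies the fragment into double-stranded RNA, and DCL4 with DRB4 dices it into phased siRNAs that act on other mRNAs. *TAS1* and *TAS2* are cut by AGO1 with miR173 and yield siRNAs against pentatricopeptide repeat (PPR) and *HTT* transcripts, and *TAS3* is bound by AGO7 with miR390 and yields the tasiR-ARFs that target the auxin response factors *ARF2*, *ARF3* and *ARF4*. Pol IV, by contrast, supplies the precursors of most 24-nt siRNAs, and the comparisons here asked whether small RNAs of these Pol II loci differ when ZMP, Pol IV or SHH1 is missing.

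The miRNAs that start phasing at these loci are printed with the seed, bases 2 to 8, in capitals (RefSeq, TAIR10.1), since the register of every siRNA below is counted from their cleavage positions.
miR173-5p: uUCGCUUGcagagagaaaucac
miR390a-5p: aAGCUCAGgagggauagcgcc
The sites found in the transcripts follow, 5′ to 3′, with the bases that mismatch the miRNA or form a G:U pair in capitals.
TAS1A and TAS1C site: gugauuuUucucuAcaagcgaa
TAS1B site: gugauuuUucucAAcaagcgaa
TAS2 site: gugauuuUucucuCcaagcgaa
TAS3 5′ site: ggUgUuauccUAUcugagcuu
TAS3 3′ site: UUGUcuaucccuccugagcuA
The miR173 site of *TAS1A* and *TAS1C* had the same sequence, that of *TAS2* likewise had 1 mismatch and 1 G:U pair, and that of *TAS1B* had 2 mismatches and 1 G:U pair. The 5′ miR390 site of *TAS3* had 1 mismatch and 4 G:U pairs, and the 3′ site had 5 mismatches and no G:U pair. The sites lie at Chr2:11722081-11722102, Chr1:18549660-18549681, Chr2:16537890-16537911 and Chr2:16539991-16540012 in *TAS1A*, *TAS1B*, *TAS1C* and *TAS2*, and at Chr3:5862099-5862119 and Chr3:5862343-5862363 in *TAS3*.

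The siRNAs that stand for these loci are tasiR255 of *TAS1*, for which the study used a probe, and the paired tasiR-ARFs of *TAS3*. For the tasiR-ARFs the 21-nt stretches at the predicted register positions 5D7 and 5D8 are printed, with the bases they share at the start in capitals. Their frame was counted from the predicted 3′ cut and was not checked against reads, so the siRNAs themselves may start at another base.
tasiR255: uucuaaguccaacauagcgua
TAS3 5D7: UCUUGACCUUGUAAGacccca
TAS3 5D8: UCUUGACCUUGUAAGgccuuu
tasiR255 occurred at 3 places in the genome, 1 in each *TAS1* gene, always in register with the miR173 cleavage position: it was the register position 6 in *TAS1A* and *TAS1B* and position 3 in *TAS1C*. A read of this sequence therefore cannot be assigned to 1 *TAS1* gene by itself, and the deposited counts place such reads by uniquely mapped neighbours. In the predicted frame 5D7 and 5D8 were the same at 17 of 21 positions, and their first 15 bases were shared. In the transcript a u precedes each of them, so the shared run begins before the printed start.

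Read depth differed between libraries and between loci. Libraries held 0.532 to 8.35 M reads of 21 to 24 nt. At 21 nt a library gave 1834 to 8164 reads at *TAS1A*, 790 to 3415 at *TAS1B*, 7527 to 49691 at *TAS1C*, 2903 to 12048 at *TAS2* and 980 to 5009 at *TAS3*. The study scaled counts to reads of the 45S ribosomal RNA (RPMR, the count divided by the M of 45S reads in the library), and that scale differed between groups. 45S reads numbered 6.04 to 7.72 M in *zmp-2 nrpd1-3* libraries, against 0.384 to 0.470 M in *zmp-2* of batch B. The 21-nt reads in annotated miRNA gene windows came to 2.89 to 3.76% of 45S reads in *zmp-2 nrpd1-3*, against 30.5 to 41.5% in *zmp-2* of batch B. In batch A they came to 72.4 to 76.4% in *nrpd1-3*, against 88.8 to 97.4% in WT. Reads of 24 nt made up 12.5 to 13.3% of the library in *nrpd1-3* and 13.1 to 13.8% in *zmp-2 nrpd1-3*. Levels are therefore given as RPMR and also per 1000 reads of 21 nt in miRNA gene windows, a ratio within a library that does not use the 45S reads. MIR159a, MIR159b and MIR319a windows led that denominator with 16.3, 16.0 and 11.4% of it. Fewer cells that make ta-siRNAs and fewer ta-siRNAs per cell cannot be told apart in whole inflorescences.

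Together the 5 loci held a few percent of the 21-nt reads. They took 6.25 ± 0.27% in *zmp-2*, 7.39 ± 0.17% in *nrpd1-3*, 5.82 ± 0.61% in *ZMP-YFP zmp-2* and 5.89 ± 0.19% in WT of batch A (SD, n = 3, and n = 2 for *nrpd1-3*). In batch B they took 5.99 ± 0.66% in *zmp-2 nrpd1-3*, 5.31 ± 1.43% in *zmp-2 shh1-1*, 6.69 ± 0.69% in *zmp-2* and 5.72 ± 0.63% in WT (SD, n = 3 each). The lowest library was a *zmp-2 shh1-1* library at 3.70% and the highest a *nrpd1-3* library at 7.51%. Of 24-nt reads the loci took a far smaller part, except where Pol IV was missing. It was 6.08 ± 0.75% in *nrpd1-3*, against 0.151 ± 0.018% in WT of that batch, and 3.08 ± 0.12% in *zmp-2 nrpd1-3*, against 0.199 ± 0.007% in *zmp-2* of batch B. The denominator differed too, since 24-nt reads as a whole were few in both of those mutants.

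Per kilobase of gene, *TAS1C* was the most abundant at 21 nt, followed by *TAS2*, *TAS1A*, *TAS3* and *TAS1B*. *TAS1C* exceeded *TAS2* in 23 of 23 libraries by a median ratio of 3.17 (range 1.74 to 4.67). *TAS2* exceeded *TAS1A* in 22 of 23 by a median ratio of 1.50, and *TAS1A* exceeded *TAS3* in 23 of 23 by a median ratio of 1.70. The last pair did not separate: *TAS3* exceeded *TAS1B* in 15 of 23 libraries, with ratios of 0.668 to 1.66. *TAS1C* alone gave 42.0 to 68.4% of the 21-nt reads of the 5 loci. Its leading window ranked 5 to 13 among all 21-nt windows of a library, that of *TAS2* 12 to 19, of *TAS1A* 13 to 27, of *TAS3* 24 to 42 and of *TAS1B* 28 to 67. The batches differed in this make-up in the same genotype: *TAS1C* held 61.9 ± 0.5% of the TAS reads in batch A WT and 52.2 ± 3.8% in batch B WT, and *TAS1A* held 8.32 ± 0.53% and 12.5 ± 0.6% in the same groups (SD, n = 3 each). All genotype comparisons below were made within a batch.

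**Figure D1:**
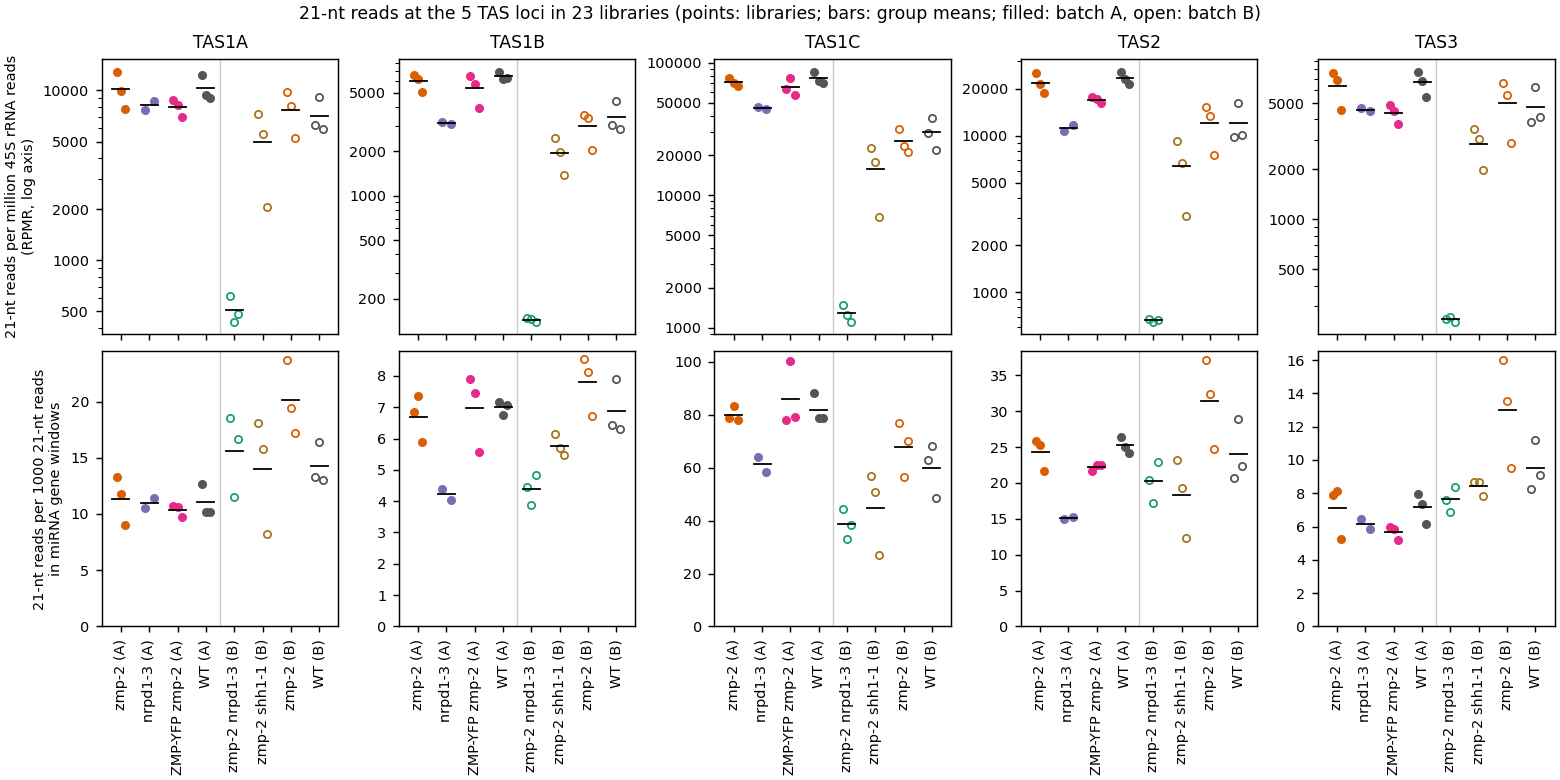
21-nt level of each *TAS* locus in every library, as RPMR (log axis) and per 1000 reads of 21 nt in miRNA gene windows (axis from 0). Points are libraries and bars are group means; on the RPMR scale the *zmp-2 nrpd1-3* libraries lie between 140 and 1479, below every other library of the same locus, while per 1000 miRNA reads they lie within or next to the range of the other groups.

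Within each locus the 21-nt reads lay on the side of the cleavage position from which siRNAs are diced. In the miR173 loci the 5 windows from the site onward held at least 98.6% of the 21-nt reads of the locus in every library, and in *TAS3* the 4 windows up to the 3′ miR390 site held at least 99.8%. One window led in each locus, and it was the same in 23 of 23 libraries. In *TAS1A* this was Chr2:11721901-11722000, where tasiR255 begins, with 56.4 to 75.4% of the locus. In *TAS1B* it was Chr1:18549501-18549600, which also holds the start of tasiR255, with 49.0 to 73.6%. In *TAS1C* it was Chr2:16537801-16537900, again the tasiR255 window, with 61.0 to 81.7%. In *TAS2* the window Chr2:16539801-16539900 held 54.8 to 72.2%, and in *TAS3* the window of 5D7, Chr3:5862201-5862300, held 43.4 to 73.4%. The adjoining *TAS3* window Chr3:5862101-5862200, where both 5D8 and the 5′ miR390 site lie, came next in the group means. A window holds several register positions and both strands, so no value here is that of a single siRNA. The 5 windows on either side of each gene together held 0 to 8 reads of 21 nt per library.

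**Figure D2:**
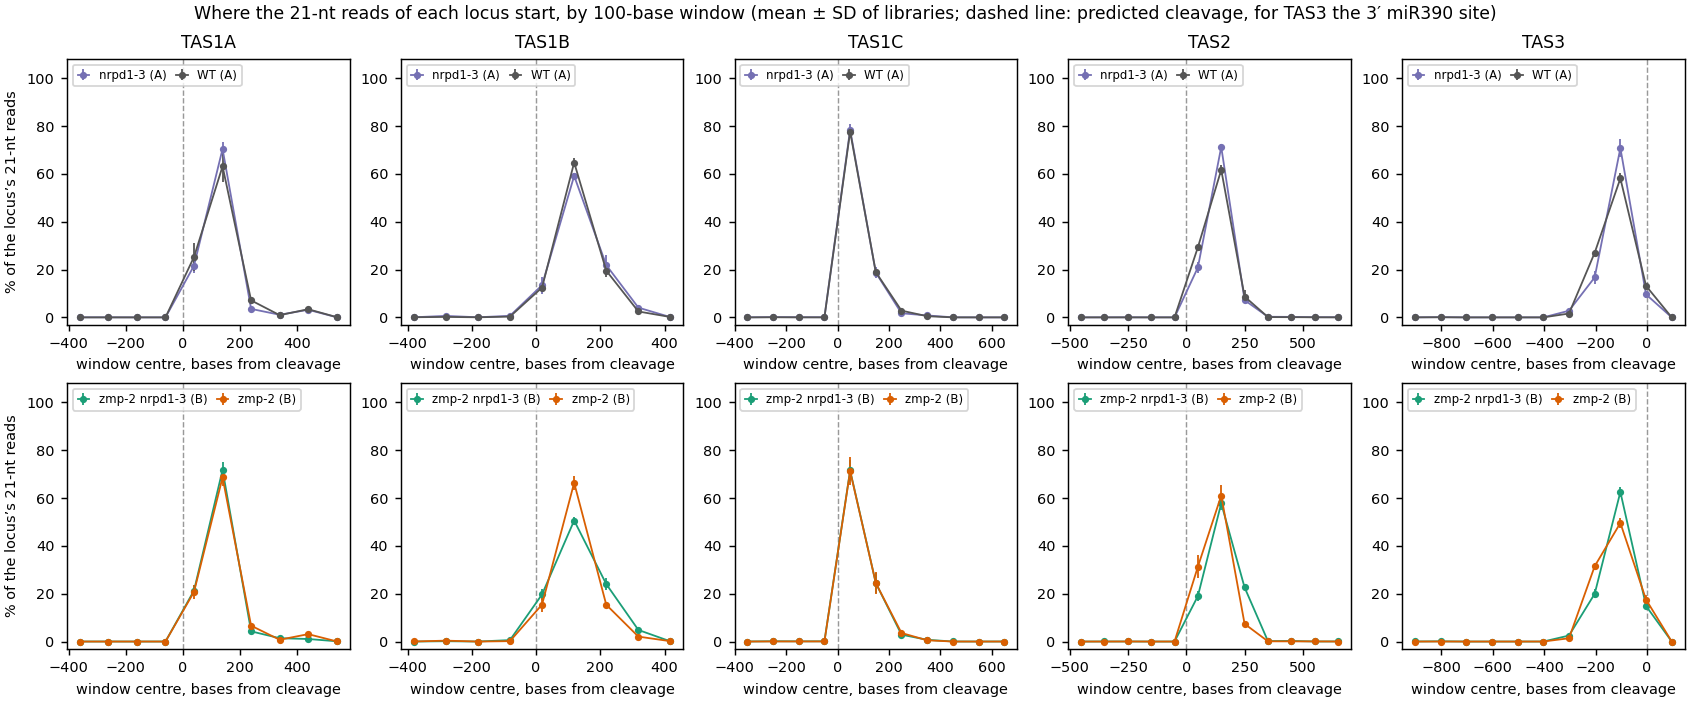
Percent of the 21-nt reads of each locus that start in each 100-bp window, against the distance of the window's centre from the cleavage position in bases (positive is 3′ of the cut in the transcript), for *nrpd1-3* and WT of batch A (upper row) and *zmp-2 nrpd1-3* and *zmp-2* of batch B (lower row). Points are group means with SD bars; the lines of mutant and control coincide most closely in *TAS1C* and part at windows of the other 4 loci.

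Reads of 21 nt were the largest class at every locus, at 81.6 to 90.6% of 21- to 24-nt reads in *TAS1A*, 74.7 to 85.2% in *TAS1B*, 70.7 to 80.6% in *TAS1C*, 58.8 to 70.1% in *TAS2* and 79.2 to 88.6% in *TAS3*. *TAS2* stood apart through its 22-nt reads, 18.2 to 25.5% of the locus, of which 78.4 to 90.8% began in its leading 21-nt window. *TAS1C* had the highest median 24-nt share, 13.6% (range 9.00 to 17.7%). Those 24-nt reads did not follow the 21-nt pattern: 79.0 to 94.4% of them began in Chr2:16537701-16537800, the window after the tasiR255 window. *TAS1C* and *TAS2* gave at least 1216 and 392 reads of 24 nt in each library, against at most 477 at *TAS1A*, 262 at *TAS1B* and 213 at *TAS3*.

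**Figure D3:**
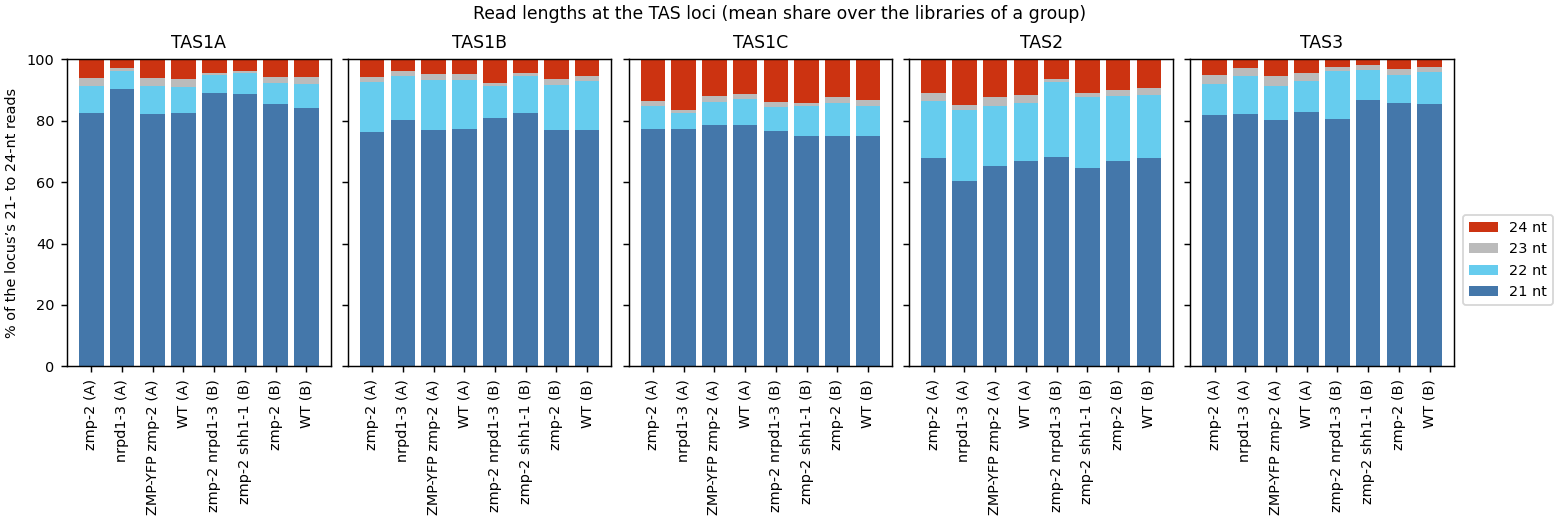
Share of 21-, 22-, 23- and 24-nt reads among the 21- to 24-nt reads of each *TAS* locus, by group; bars are group means and start at 0. Every locus is mostly 21 nt, and *TAS2* carries the most 22-nt reads, between 18.2 and 25.5% in every library.

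Without ZMP none of the 5 loci passed the test at 21 nt in either batch. *TAS1A* measured 12922, 9980 and 7792 RPMR in *zmp-2* of batch A, against 12382, 9470 and 9055 in WT. In batch B it measured 9780, 8076 and 5258 RPMR in *zmp-2*, against 6284, 9136 and 5929 in WT. The groups overlapped in both batches. *TAS1C*, the most abundant locus, measured 76477, 70444 and 67314 RPMR in *zmp-2* of batch A, against 85898, 73089 and 70119 in WT. *TAS3*, the source of tasiR-ARFs, measured 7661, 6892 and 4541 RPMR in *zmp-2* of batch A, against 7761, 6830 and 5449 in WT. These ranges overlapped too. edgeR's quasi-likelihood test with 45S library sizes gave log2 fold changes of -0.12 to -0.010 over the 5 loci in batch A and -0.23 to 0.11 in batch B, and with both batches in 1 fit -0.16 to 0.052, with SE of 0.22 to 0.25. A locus counted as called when it differed 2-fold or more with a false discovery rate (FDR, Benjamini-Hochberg) no higher than 0.05. By that rule 0 of 5 loci were called in each of the 3 fits and 0 had an unadjusted p below 0.05. DESeq2, which here and below scaled libraries by its own method and not by 45S reads, called 0. Of all rows tested 14.6% were called in batch A, 14.2% in batch B and 13.5% with both batches. The interaction of genotype with batch passed the FDR cutoff at 0 of 5 loci, with 0 at an unadjusted p below 0.05. The rule calls no difference below 2-fold.

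By window and by read length there was no call with 45S library sizes either. At 21 nt 0 of 32 windows tested were called in batch A and 0 of 31 in batch B, against 14.6% and 14.2% of all windows, and 1 window in each batch had an unadjusted p below 0.05 (edgeR). With both batches in 1 fit, 0 of 5 loci were called at 22 nt and 0 of 5 at 24 nt, where 13.9% and 9.72% of all rows were, and 0 had an unadjusted p below 0.05 at either length. DESeq2 was not run on those lengths or on windows. On the scale of miRNA reads the batch B values of the 5 loci were higher in *zmp-2* than in WT, with no locus called: the largest were 0.50 ± 0.18 for *TAS1A* at 21 nt (log2 ± SE, FDR = 0.052) and 0.73 ± 0.21 for *TAS3* at 24 nt (FDR = 0.035, below the fold cutoff). Of the windows on that scale, 6 of 31, 3 of 26 and 6 of 21 had an unadjusted p below 0.05 at 21, 22 and 24 nt in batch B. The single call was at 24 nt, where the *TAS3* window of 5D8, Chr3:5862101-5862200, was higher in *zmp-2* by 1.11 ± 0.30 (FDR = 0.023), 1 of 21 windows against 3.76% of all windows. In batch A the values given for *TAS1A* and *TAS3* were 0.042 ± 0.243 and 0.20 ± 0.19.

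In *ZMP-YFP zmp-2* the mean RPMR of each of the 5 loci lay below that of WT, with no locus called. *TAS3* measured 4882, 4494 and 3728 RPMR in *ZMP-YFP zmp-2*, against 7761, 6830 and 5449 in WT, which did not overlap. *TAS2*, at 17047 ± 850 against 23477 ± 2169, and *TAS1A*, at 7974 ± 914 against 10302 ± 1813, did not overlap either (mean ± SD, n = 3 each). *TAS1B*, at 5394 ± 1283 against 6503 ± 407, overlapped. The share of all rows without overlap was not computed. *TAS1C* measured 63863, 77224 and 56691 RPMR, against 85898, 73089 and 70119 in WT, which overlapped. The log2 fold changes ran from -0.61 ± 0.25 for *TAS3* (edgeR, FDR = 0.39) to -0.21 ± 0.25 for *TAS1C* (FDR = 0.86), and the median over all windows was -0.25. By edgeR 0 of 5 loci and 0 of 31 windows were called, 1 locus, *TAS3*, and 8 windows had an unadjusted p below 0.05, and DESeq2 called 0 loci. With miRNA-window reads as library size 1 of the 31 windows did. Of all rows 0.515% were called when the loci were summed, and 0.514% of all windows.

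In *nrpd1-3*, without Pol IV, most 21-nt windows of the genome fell far more than the 5 loci did. The median log2 fold change over all rows was -6.11 and that over miRNA windows -0.31, against -1.06 to -0.34 for the 5 loci. *TAS2* measured 10796 and 11673 RPMR in *nrpd1-3*, against 25755, 23239 and 21437 in WT, and *TAS1B* measured 3191 and 3080 RPMR, against 6973, 6247 and 6289 in WT. *TAS1A* measured 7628 and 8701 RPMR in *nrpd1-3*, against 12382, 9470 and 9055 in WT. *TAS1C* measured 45556 ± 1231 RPMR, against 76369 ± 8385, and *TAS3* 4574 ± 150, against 6680 ± 1163 (mean ± SD, n = 2 and 3). None of the 5 loci overlapped between the groups. The share of all rows without overlap was not computed. edgeR gave -1.06 ± 0.35 for *TAS2* (log2 ± SE, FDR = 0.0028), -1.05 ± 0.35 for *TAS1B* (FDR = 0.0036), -0.75 ± 0.34 for *TAS1C* (FDR = 0.031), -0.55 ± 0.35 for *TAS3* (FDR = 0.13) and -0.34 ± 0.34 for *TAS1A* (FDR = 0.36). Thus 2 of 5 loci were called lower, against 83.7% of all rows.

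Both calls depended on the scale and on 1 library. They were lost when WT replicate 1 was left out, with log2 fold changes of -0.9994 for *TAS1B* and -0.9916 for *TAS2*, and DESeq2 called 0 of 5. Per 1000 miRNA reads *TAS2* measured 14.9 and 15.3 in *nrpd1-3*, against 26.4, 25.1 and 24.1 in WT, and *TAS1B* 4.4 and 4.0, against 7.2, 6.7 and 7.1 in WT. *TAS1A* measured 10.5 and 11.4, against 12.7, 10.2 and 10.2 in WT. On this scale edgeR gave -0.74 ± 0.31 for *TAS2* (FDR = 0.021), -0.73 ± 0.32 for *TAS1B* (FDR = 0.027) and -0.010 ± 0.31 for *TAS1A* (FDR = 0.98), and 0 of 5 loci were called where 86.1% of all rows were. Scaled to all 21- to 24-nt reads, from which most 24-nt reads were missing, all 5 loci were called higher (2.32 to 3.05, log2), against 17.2% of all rows.

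The 24-nt reads of *nrpd1-3* set the loci apart. *TAS1C* stood at 0.17 ± 0.22 relative to miRNA reads (log2 ± SE, FDR = 0.46) and *TAS2* at -0.23 ± 0.21 (FDR = 0.30). *TAS1A* fell by 1.35 ± 0.23 (FDR = 5.0e-05) and *TAS1B* by 1.07 ± 0.25 (FDR = 0.00066), while *TAS3* stood at -0.91 ± 0.24 (FDR = 0.0017), below the fold cutoff. Thus 2 of 5 loci were called lower on the miRNA scale, against 98.6% of all rows, and 3 of 5 on the 45S scale (*TAS1A*, *TAS1B* and *TAS3*), against 98.7%. At 22 nt *TAS1C* fell by 1.01 ± 0.26 relative to miRNA reads (FDR = 9.1e-05), 1 of 5 loci called against 92.6% of all rows. On the 45S scale 3 of 5 were called lower, *TAS1A*, *TAS1B* and *TAS1C*, against 92.9%.

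The make-up by length differed as well. In *TAS1A* 21-nt reads were 90.3 ± 0.4% of the locus in *nrpd1-3*, against 82.4 ± 0.8% in WT (SD, n = 2 and 3). In *TAS2* they were 60.5 ± 2.3%, against 66.9 ± 1.1%, with 22-nt reads at 22.8 ± 1.9%, against 18.9 ± 0.6%, and 24-nt reads at 14.9 ± 0.5%, against 11.6 ± 0.6%. Neither locus overlapped between the groups in these shares. How many of all rows lacked overlap in such shares was not computed. The exact two-sided permutation test gave p = 0.1 for each, the smallest that 2 against 3 libraries allow. Over the 35 tests of each share (5 loci, 6 comparisons within a batch and *zmp-2* against WT over both batches) the lowest adjusted p was 0.5 for 21 nt, 0.438 for 22 nt and 0.292 for 24 nt. No share passed a threshold of 0.05, but the tests within a batch could not pass it, as 0.1 is their smallest p.

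**Figure D4:**
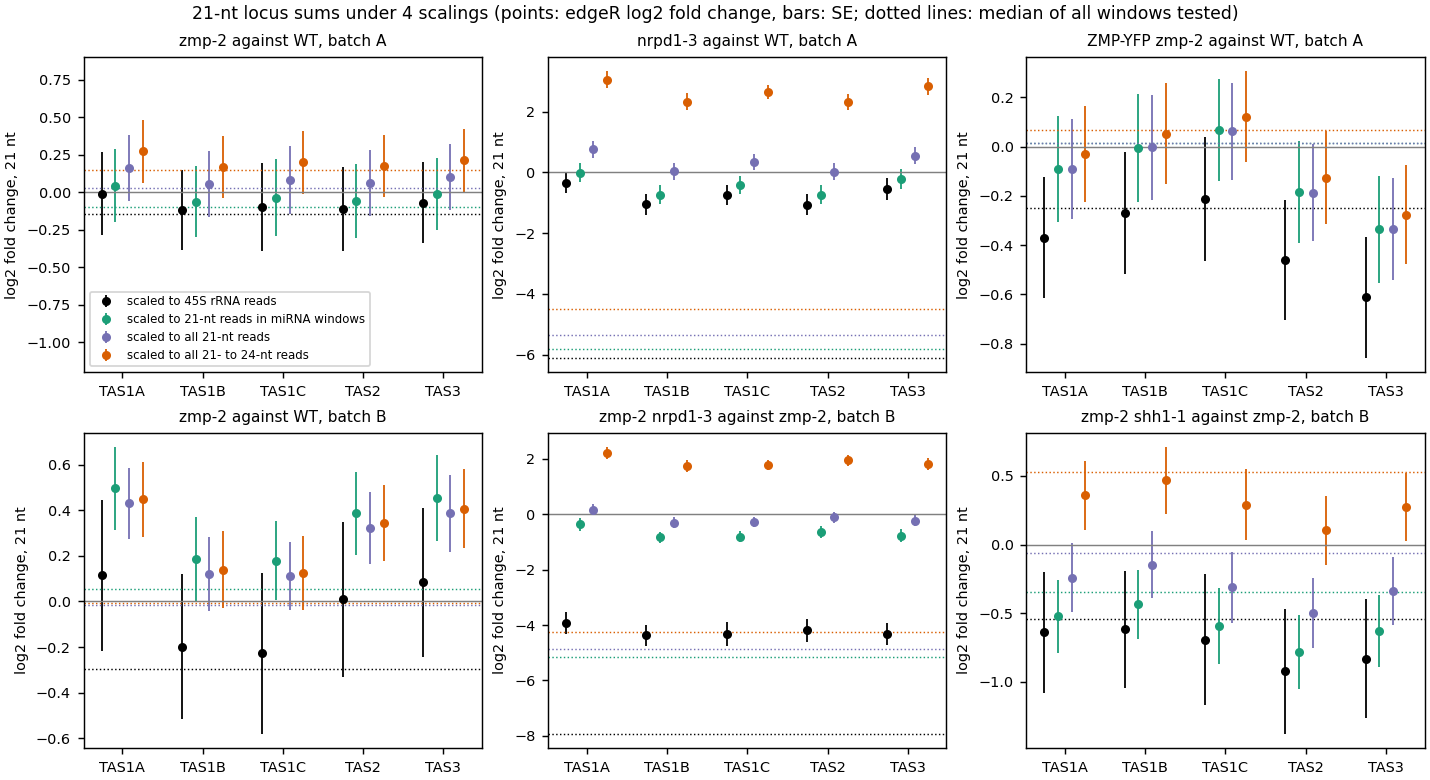
log2 fold change of the 21-nt sum of each *TAS* locus in 6 comparisons within a batch, scaled in 4 ways (45S reads, 21-nt reads in miRNA windows, all 21-nt reads, all 21- to 24-nt reads); points are edgeR estimates, bars are SE and dotted lines mark the median of all rows tested. In *zmp-2 nrpd1-3* against *zmp-2* the values lie between -4.37 and -3.92 with 45S reads and between -0.83 and -0.37 with miRNA-window reads, and each panel has its own vertical axis.

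In *zmp-2 nrpd1-3* the 5 loci fell on the 45S scale, where miRNA windows fell as well. *TAS1C* measured 1479, 1246 and 1107 RPMR in *zmp-2 nrpd1-3*, against 31756, 23434 and 21372 in *zmp-2*, and *TAS3* 253, 260 and 243 RPMR, against 6602, 5614 and 2903 in *zmp-2*. No locus overlapped. edgeR gave -4.37 to -3.92 (log2, SE of 0.38 to 0.43), and 5 of 5 loci were called lower, against 85.3% of all rows. The median log2 fold change was -7.92 over all rows and -3.35 over miRNA windows, and the 45S reads of these libraries were the highest of the series. Scaled within the library, the differences were far smaller. Per 1000 miRNA reads *TAS1C* measured 44.5, 33.1 and 38.3 in *zmp-2 nrpd1-3*, against 76.9, 56.4 and 70.0 in *zmp-2*. *TAS3* measured 7.6, 6.9 and 8.4, against 16.0, 13.5 and 9.5 in *zmp-2*, and *TAS1B* 4.4, 3.9 and 4.8, against 8.6, 8.1 and 6.7. These 3 loci did not overlap between the groups. *TAS2*, at 20.2 ± 2.9 against 31.4 ± 6.2 (mean ± SD, n = 3 each), did not overlap either. The share of all rows without overlap was not computed. *TAS1A* measured 18.5, 11.5 and 16.7, against 23.7, 19.5 and 17.2, and overlapped.

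On that scale edgeR gave -0.83 ± 0.21 for *TAS1B* (log2 ± SE, FDR = 0.0012), -0.81 ± 0.20 for *TAS1C* (FDR = 0.0011), -0.77 ± 0.22 for *TAS3* (FDR = 0.0032), -0.64 ± 0.21 for *TAS2* (FDR = 0.0084) and -0.37 ± 0.22 for *TAS1A* (FDR = 0.12). None of the 5 reached the 2-fold cutoff, where 84.7% of all rows were called. Scaled to all 21- to 24-nt reads, 5 of 5 were called higher (1.75 to 2.22), against 27.8% of all rows. At 24 nt 5 of 5 loci were called lower on the 45S scale (-4.79 to -4.16), against 98.8% of all rows. On the miRNA scale only *TAS2* was, at -1.27 ± 0.19 (FDR = 2.5e-05), 1 of 5 against 97.7%. At 22 nt 5 of 5 were called lower on the 45S scale, against 91.9%, and on the miRNA scale *TAS1B* (-1.41 ± 0.23) and *TAS1C* (-1.23 ± 0.23), 2 of 5 against 85.7%. *TAS3* stood at 0.13 ± 0.22 at 22 nt on that scale (FDR = 0.58), and 22-nt reads were 15.5 ± 1.0% of *TAS3* in *zmp-2 nrpd1-3*, against 8.98 ± 0.85% for *zmp-2* (mean ± SD of 3 libraries; an exact permutation test gave p = 0.1, the smallest possible).

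Some windows held a different share of their locus in the Pol IV mutants than in their controls. The window at the *TAS2* cleavage position, Chr2:16539901-16540000, held 20.9 ± 2.4% of the 21-nt reads of *TAS2* in *nrpd1-3*, against 29.3 ± 0.4% in WT, and 19.0 ± 2.1% in *zmp-2 nrpd1-3*, against 31.3 ± 4.8% in *zmp-2* (SD, n = 2 for *nrpd1-3* and n = 3 otherwise). On the miRNA scale its level fell by 1.23 ± 0.32 (log2 ± SE, FDR = 0.0002) and by 1.37 ± 0.26 (FDR = 9.5e-05). The *TAS3* window of 5D8, Chr3:5862101-5862200, held 16.7 ± 2.6% in *nrpd1-3*, against 27.0 ± 0.9% in WT, and 19.9 ± 1.9% in *zmp-2 nrpd1-3*, against 31.5 ± 1.5% in *zmp-2*. The 5D7 window next to it held 70.8 ± 3.6% in *nrpd1-3*, against 58.1 ± 2.1% in WT, and 62.6 ± 2.0% in *zmp-2 nrpd1-3*, against 49.6 ± 2.1% in *zmp-2*. On the miRNA scale the 5D8 window fell by 1.42 ± 0.25 in *zmp-2 nrpd1-3* (FDR = 3.7e-05) and stood at -0.91 ± 0.32 in *nrpd1-3* (FDR = 0.0062), below the fold cutoff. Strands are merged and the antisense strand of 5D8 begins in the 5D7 window, so these windows do not separate 5D7 from 5D8. In *TAS1A* the window Chr2:11721801-11721900 held 3.5 ± 0.6% in *nrpd1-3*, against 7.1 ± 1.1% in WT, and 4.3 ± 0.9% in *zmp-2 nrpd1-3*, against 6.6 ± 0.6% in *zmp-2*. The leading window of *TAS1B* held 59.2 ± 1.1% in *nrpd1-3*, against 64.8 ± 2.0% in WT, and 50.6 ± 1.5% in *zmp-2 nrpd1-3*, against 66.4 ± 2.9% in *zmp-2*. In each of these windows the share differed in the same direction in both mutants, and the groups did not overlap. The share of all windows without overlap was not computed. Shares of windows within a locus are tied to each other, so the 5D7 and 5D8 windows are not separate observations.

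Elsewhere the values of the mutants were unlike. The leading window of *TAS2* held 71.3 ± 1.3% of the locus in *nrpd1-3*, against 61.7 ± 2.1% in WT, and 57.8 ± 2.6% in *zmp-2 nrpd1-3*, against 61.0 ± 4.5% in *zmp-2*, which overlapped. Chr2:16539701-16539800 of *TAS2* held 22.1 to 23.2% of the locus in *zmp-2 nrpd1-3*, against 6.8 to 7.8% in *zmp-2*, while it held 7.2 ± 1.1% in *nrpd1-3*, against 8.7 ± 2.6% in WT. Its level stood at 0.98 ± 0.23 on the miRNA scale (FDR = 0.00063) in *zmp-2 nrpd1-3*, just below the cutoff, and fell by 1.01 ± 0.33 (FDR = 0.0027) in *nrpd1-3*. The *TAS1A* window Chr2:11721601-11721700 held 1.1 ± 0.2% in *zmp-2 nrpd1-3*, against 3.1 ± 0.5% in *zmp-2*, and 3.2 ± 0.5% in *nrpd1-3*, against 3.4 ± 0.7% in WT. Whether these windows differ between the mutants was not tested across batches. The windows given here by position in *TAS1A* and Chr2:16539701-16539800 were chosen after their values were seen. The leading window of *TAS1C* kept its part: 78.5 ± 2.4% in *nrpd1-3*, against 77.7 ± 1.3% in WT, and 71.5 ± 4.4% in *zmp-2 nrpd1-3*, against 71.3 ± 5.8% in *zmp-2*. In all, 8 of 29 windows tested were called lower and 1 higher on the miRNA scale in *zmp-2 nrpd1-3*, against 71.0% and 13.5% of all windows. In *nrpd1-3* 3 of 34 were called lower and 4 higher, against 82.7% and 3.31%, and the 4 higher ones lay upstream of the cut or at the end of the gene, where reads were few.

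Loss of SHH1 in the *zmp-2* background gave lower 24-nt levels at 3 loci and no locus call at 21 nt. *TAS2*, the locus that differed most at 21 nt, measured 9318, 6753 and 3096 RPMR in *zmp-2 shh1-1*, against 15314, 13439 and 7553 in *zmp-2*, which overlapped. edgeR gave -0.92 to -0.62 over the 5 loci (SE of 0.42 to 0.47), against a median of -0.54 over all rows. By edgeR 0 of 5 loci were called at 21 nt, where 23.6% of all rows were; 1, *TAS2*, had an unadjusted p below 0.05 and DESeq2 called 0. At 22 nt 0 of 5 were called, against 23.1% of all rows, with 2 at an unadjusted p below 0.05. At 24 nt *TAS3* fell by 1.59 ± 0.44 (log2 ± SE, FDR = 0.0032), *TAS1A* by 1.35 ± 0.42 (FDR = 0.0084) and *TAS1B* by 1.16 ± 0.43 (FDR = 0.033), 3 of 5 loci against 28.9% of all rows. *TAS1C* stood at -0.47 ± 0.40 and *TAS2* at -0.69 ± 0.41. The same 3 loci were called on the miRNA scale, at -1.44 ± 0.27, -1.22 ± 0.24 and -1.02 ± 0.27, against 28.1% of all rows. Scaled to all 21- to 24-nt reads none of the 3 was called, at -0.55 ± 0.25, -0.33 ± 0.22 and -0.13 ± 0.24 for *TAS3*, *TAS1A* and *TAS1B*. These were also the loci with the fewest 24-nt reads. Of the windows, 2 of 32 tested were called lower at 21 nt, 1 in *TAS1A* and 1 in *TAS1C*, against 23.1% of all windows, and that count ran from 0 to 7 as single libraries were left out: it was 0 without *zmp-2* replicate 1, without *zmp-2* replicate 2 or without *zmp-2 shh1-1* replicate 2, 6 without *zmp-2 shh1-1* replicate 1 and 7 without *zmp-2* replicate 3. The count of 3 loci at 24 nt fell to 1, *TAS3*, without *zmp-2* replicate 1 and to 2, *TAS1A* and *TAS3*, without *zmp-2* replicate 2 or *zmp-2 shh1-1* replicate 3.

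The triggers were measured in the same libraries. MIR173 windows held 3.76 ± 0.99 reads of 21 nt per 1000 miRNA reads in *zmp-2 nrpd1-3*, against 14.6 ± 1.2 in *zmp-2* of batch B (SD, n = 3 each), a log2 change of -1.95 ± 0.23 (SE). In *nrpd1-3* they held 34.1 ± 6.7, against 21.8 ± 5.7 in WT, with no call. MIR390A windows held 12.0 ± 1.6 in *zmp-2 nrpd1-3*, against 3.14 ± 0.48 in *zmp-2*, and MIR390B windows 2.41 ± 0.29, against 0.535 ± 0.116, log2 changes of 1.94 ± 0.22 and 2.18 ± 0.24. On the 45S scale all 3 were lower (-5.48, -1.54 and -1.29), so the direction for MIR390 depends on the scale. The miR390-5p sequence is the same in MIR390A and MIR390B. Its reads cannot be assigned to either gene by themselves, so the MIR390 genes are not separate measures of the trigger. The mature miR173 is 22 nt long, and 22-nt reads were 51.8 ± 9.2% of the 21- and 22-nt reads of MIR173 in *zmp-2 nrpd1-3*, against 12.4 ± 0.8% in *zmp-2*. Per 1000 miRNA reads MIR173 had 3.41, 4.13 and 4.40 reads of 22 nt in *zmp-2 nrpd1-3*, against 2.42, 1.93 and 1.87 in *zmp-2*. As RPMR it had 113.2, 155.6 and 127.2 in *zmp-2 nrpd1-3*, against 998.4, 799.3 and 569.8 in *zmp-2*, so this direction too depends on the scale. In that mutant the miR173 loci stood at -0.83 to -0.37 on the miRNA scale and *TAS3* at -0.77, and the part of the triggers in these levels was not tested.

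**Figure D5:**
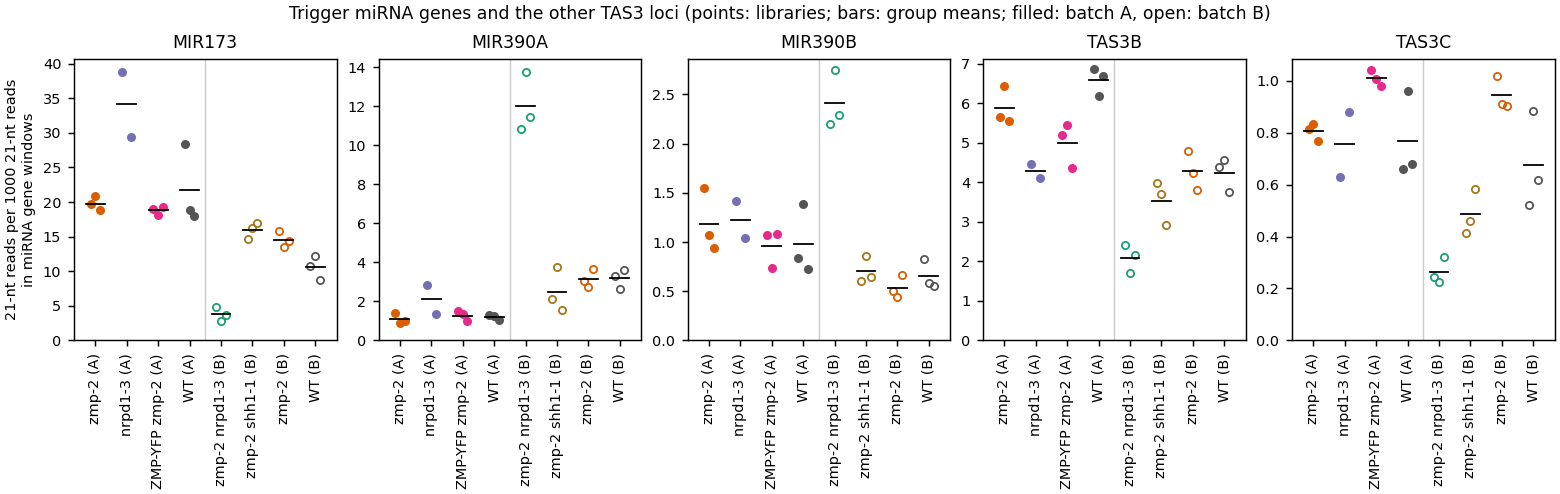
21-nt reads per 1000 miRNA-window reads at MIR173, MIR390A, MIR390B, TAS3B and TAS3C in every library (axes from 0). MIR173 is lowest and MIR390A and MIR390B are highest in the *zmp-2 nrpd1-3* libraries.

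The rest of the pathway was followed through the small RNAs that map to its genes, which are not a measure of their mRNAs. The other *TAS3* genes, TAS3B and TAS3C, which yield tasiR-ARFs in the same way, fell in *zmp-2 nrpd1-3* by 1.03 ± 0.22 and 1.84 ± 0.25 on the miRNA scale (log2 ± SE), and TAS3C fell in *zmp-2 shh1-1* by 1.18 on the 45S scale (FDR = 0.017). TAS4, the third one listed, was not tested for lack of reads. On the 45S scale each pathway gene tested was called lower in *zmp-2 nrpd1-3*, the 8 PPR genes and the 3 tasiR-ARF targets included. Of the 3 tasiR-ARF targets, 1, ARF3, was called lower in *zmp-2 nrpd1-3* on the miRNA scale (-1.49, FDR = 0.031). Of the 8 PPR genes, which themselves make secondary siRNAs, 1 was called lower in *zmp-2 nrpd1-3*, AT1G63080 (-1.98), and 2 higher in *nrpd1-3*, AT1G63130 and AT1G63150 (1.15 and 1.16), all on the miRNA scale. Of the 6 machinery genes only 1 or 2 had reads enough to test. AGO1, the effector of miR173, was called higher in *nrpd1-3* on both scales (1.02 and 1.35). MIR845A and MIR845B, miRNAs known from pollen, fell by 2.40 and 1.76 in *zmp-2 nrpd1-3* on the miRNA scale. With the pathway genes summed, 86.4% of all rows were called in either direction in *nrpd1-3* on the 45S scale and 86.6% on the miRNA scale. The shares were 85.8% and 85.4% in *zmp-2 nrpd1-3*, and 23.7% in *zmp-2 shh1-1* on the 45S scale. Higher calls were rarer in *nrpd1-3*: 299 of 13374 rows on the 45S scale with the *TAS* loci summed, and 3.31% of windows on the miRNA scale. In *zmp-2 nrpd1-3* 71.0% of windows were called lower on the miRNA scale. In *zmp-2* of either batch and in *ZMP-YFP zmp-2* no gene of any role was called on either scale. None of the 4 *TAS1* targets and 3 *TAS4* targets listed had reads enough to test.

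Over the 8 groups, the genes whose share of the 21-nt reads (log2 of the group means) followed the sum of the 5 loci most closely, among 342 genes with at least 20 reads in every library of 6 or more groups, were MIR5995b, MIR5595a and MES6 (Pearson's r = 0.856, rho = 0.762), which share their windows. MIR168b (r = 0.803) and AT1G05780 (r = 0.784) came next. The points share libraries and depth, the group means of the *TAS* sum spanned 0.475 on the log2 scale, and no test was made.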

How the data were processed

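Small RNA libraries from inflorescences were taken as deposited. Per the study's methods, trimmed reads were matched to rRNA, tRNA and small nucleolar RNA sequences with Bowtie 1.1.0, hits to 45S rRNA were counted, and ShortStack then aligned the other reads to TAIR10 with 0 mismatches and placed multi-mapping reads by their uniquely mapped neighbours. The authors deposited the count of reads of each length from 21 to 24 nt per 100-bp window, assigned by the 5′ end with strands merged. The deposited RPM value and the deposited RPMR score were each the count times 1 factor per library, and 45S reads were computed from the RPMR factor. Windows that are not listed were taken as 0.

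Counts were summed over the windows of each *TAS* gene, and the sums took the place of those windows in the table of all windows. Each comparison within a batch was fitted with edgeR 4.0.16 (glmQLFit, glmQLFTest; R 4.3.3) with 45S reads as library size, over windows with at least 10 counts. A call needed a fold change of at least 2 and an FDR of at most 0.05. Alternatives were other library sizes (all 21- to 24-nt reads, 21-nt reads, 21-nt reads in miRNA gene windows), TMM, DESeq2 1.42.0, no count filter, windows in which at least 90% of 21-mers occur once, a replicate block and each library left out. DESeq2 was run with its own size factors, not with 45S reads. Shares and ratios within a library were compared by exact two-sided permutation tests. On simulated counts for *zmp-2* and WT of batch A over 26244 rows, 42, 48, 50 and 50 of 50 rows changed 2.5-, 4-, 8- and 16-fold were recovered, with 4 false calls. Python 3.11.15, numpy 2.4.6, pandas 2.3.3, scipy 1.17.1 and matplotlib 3.10.9 were used.

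Sequences and gene models came from RefSeq (TAIR10.1), whose chromosomes match the windows of the files. Cleavage was placed opposite bases 10 and 11 of the miRNA. The replicates are biological per the study's methods. The members, the gene lists and the named windows (in each locus the leading 21-nt window in WT and those of the miRNA site, tasiR255, 5D7 and 5D8) were chosen with earlier results of these data known. Tests on 22- and 24-nt sums and on gene sums of the pathway were added after seeing the data.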

Additional observations from a re-analysis of the deposited data

How the results depend on the processing

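Results depended mainly on the library size. For *nrpd1-3* against WT, 5 loci were called higher with all 21- to 24-nt reads as library size and 2 higher with TMM, and 0 were called with miRNA-window reads, with 21-nt reads, with DESeq2 or without the count filter. For *zmp-2 nrpd1-3* against *zmp-2*, 5 loci were called higher with all 21- to 24-nt reads and 0 with miRNA-window reads, 21-nt reads, TMM or DESeq2. Window calls turned likewise. With all 21- to 24-nt reads, 33, 29 and 19 windows were called in *nrpd1-3* and 26, 20 and 21 in *zmp-2 nrpd1-3* at 21, 22 and 24 nt, all of them higher. Of all windows 17.3, 7.49 and 1.35% were called higher in *nrpd1-3* and 28.0, 14.0 and 2.13% in *zmp-2 nrpd1-3* under that setting. In *zmp-2 shh1-1* 4, 2 and 0 windows were called, the 4 and 2 higher, against 10.9, 12.0 and 5.53% of all windows called higher. With miRNA-window reads 7 were called in *nrpd1-3* at 21 nt, more of them higher than lower, against 86.0% of all windows called, and 9, 7 and 6 in *zmp-2 nrpd1-3* at 21, 22 and 24 nt, against 84.6, 93.2 and 98.8%. For *zmp-2* against WT of batch B, 1 window was called at 24 nt with all 21- to 24-nt reads and 1 with miRNA-window reads, both higher, against 3.49 and 3.76% of all windows. In *zmp-2 shh1-1* 0, 0 and 4 windows were called at 21, 22 and 24 nt without the count filter, against 1.95, 2.66 and 7.73% of all windows. Why these settings differ was not tested.

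The signs of single loci turned as follows (log2, 21 nt), in each case in the order all 21- to 24-nt reads, 21-nt reads, TMM and DESeq2, and no call was gained unless stated above. In *zmp-2* of batch A *TAS1A* stood at 0.27, 0.16, 0.30 and 0.31 (0.042 with miRNA-window reads), *TAS1B* at 0.17, 0.053, 0.19 and 0.20, *TAS1C* at 0.20, 0.083, 0.23 and 0.23, *TAS2* at 0.17, 0.061, 0.20 and 0.21, and *TAS3* at 0.21, 0.10, 0.24 and 0.25. In *zmp-2* of batch B *TAS1B* stood at 0.14, 0.12, 0.029 and 0.064 and *TAS1C* at 0.12, 0.11, 0.0074 and 0.045 (0.19 and 0.18 with miRNA-window reads). With both batches *TAS1B* stood at 0.15, 0.087, 0.062 and 0.10, *TAS1C* at 0.16, 0.10, 0.059 and 0.11, and *TAS2* at 0.26, 0.19, 0.18 and 0.21 (0.061, 0.071 and 0.17 with miRNA-window reads). In *ZMP-YFP zmp-2* *TAS1C* stood at 0.12, 0.063, 0.077 and 0.074 (0.066 with miRNA-window reads), and *TAS1B* at 0.053 with all 21- to 24-nt reads, 0.022 with TMM and 0.021 with DESeq2. In *nrpd1-3* *TAS1A* stood at 3.05, 0.76, 1.35 and 0.54, *TAS1C* at 2.63, 0.34, 0.97 and 0.12, and *TAS3* at 2.84, 0.55, 1.18 and 0.32, while *TAS1B* and *TAS2* stood at 2.32 and 2.32, 0.033 and 0.024, and 0.66 and 0.63 under all but DESeq2. With all 21- to 24-nt reads *TAS1A*, *TAS1B*, *TAS1C*, *TAS2* and *TAS3* stood at 2.22, 1.75, 1.78, 1.95 and 1.82 in *zmp-2 nrpd1-3* and at 0.36, 0.47, 0.29, 0.10 and 0.28 in *zmp-2 shh1-1*, and *TAS1A* at 0.16 in *zmp-2 nrpd1-3* with 21-nt reads.

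With single libraries left out, the loci called in *nrpd1-3* numbered 0 to 2, and the windows called in *zmp-2 shh1-1* numbered 0 to 7 at 21 nt, 0 to 6 at 22 nt and 3 to 8 at 24 nt. Uncalled values changed sign in *zmp-2* against WT. They ran from -0.21 to 0.15 for *TAS1A* and -0.23 to 0.12 for *TAS3* in batch A, from -0.094 to 0.34 for *TAS1A*, -0.33 to 0.022 for *TAS1B*, -0.20 to 0.28 for *TAS2* and -0.16 to 0.36 for *TAS3* in batch B, and from -0.047 to 0.14 for *TAS1A*, -0.15 to 0.062 for *TAS2* and -0.11 to 0.12 for *TAS3* over both batches. Replicate numbers showed no pairing of samples. The deviations of libraries from their group means over 21-nt windows correlated at -0.29 to 0.21 between same-numbered libraries. Between libraries of different number they correlated at -0.31 to 0.23. Deviations within a group sum to 0, so these values are not independent. The replicate block left every count of loci called at 21 nt as it was, raised the windows called at 21 nt in *zmp-2 shh1-1* to 4, against 22.5% of all windows, and put *TAS2* at -0.016 in *zmp-2* of batch B and *TAS3* at -0.029 over both batches. Of 235 differences in the share of 21-nt reads recomputed under alternatives, 225 moved by less than 1 SD. The 10 that moved more came with only 21- and 24-nt reads counted or with unique windows. None came from leaving out a library.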
